A study of Homo sapiens with 12 samples.

Results

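The Schlafen family (SLFN5, SLFN11, SLFN12, SLFN12L, SLFN13 and SLFN14) was followed in U937 cells under decitabine, all-trans retinoic acid or both agents. Its members were all rows of the deposited read-count matrix that carried one of these 6 gene symbols, which gave 41 of 197782 transcripts and 6 of 44786 gene symbols. Of the 41 transcripts, 20 had at least 1 read, and together they held 10307 reads over the 12 libraries. SLFN5 alone held 7156 of these reads, SLFN13 held 2515, SLFN12L 382, SLFN11 135, SLFN12 109 and SLFN14 10.

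U937 is a myelomonocytic leukemia cell line, used in this study as a model of acute myeloid leukemia. RNA from 4 groups of 3 libraries each was sequenced after removal of ribosomal RNA: untreated cells, cells given 200 nM decitabine (DAC, a nucleoside analogue that traps DNA methyltransferases), cells given 1 µM all-trans retinoic acid (ATRA, a ligand of the retinoic acid receptors) and cells given both (DAC + ATRA). Per the sample labels all groups were grown with 20% fetal calf serum and 5 ng/ml GM-CSF, whereas the study's methods for its cell lines give a lower serum content and name no GM-CSF, and they state that control cells received vehicle. DAC was renewed daily over 3 days. According to the study's methods ATRA was added with the last DAC dose. The sample descriptions give 96 h for the untreated libraries and 72 h for the treated ones, whereas the design text names 72 h for the whole experiment. The design text calls the libraries technical triplicates of a single cell line, so every p-value below measures only the spread between these libraries.

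Schlafen proteins are a family of vertebrate, largely interferon-inducible regulators that share an N-terminal core, in several members an endoribonuclease. SLFN5, SLFN11, SLFN13 and SLFN14 also carry a C-terminal helicase-like domain, which SLFN12 and SLFN12L lack. SLFN11 blocks stressed replication forks, cleaves tRNA and sensitizes cancer cells to DNA-damaging drugs, and its promoter is often methylated in cancer cell lines that do not express it. SLFN13 also cleaves tRNA and ribosomal RNA, SLFN12 is an RNase that is switched on by ligands of the phosphodiesterase PDE3A, SLFN14 is a ribosome-bound nuclease of the platelet and erythroid lineages, and SLFN5 is a nuclear protein that acts on interferon-dependent transcription and restricts herpesviruses.

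The 6 genes lie in a single cluster on chromosome 17 (GRCh38, GENCODE 44 coordinates), between positions 35243071 and 35558098. SLFN5 is read from the plus strand (35243071 to 35273655) and the other genes from the minus strand, in the order SLFN11 (35350305 to 35373701), SLFN12 (35410922 to 35433283), SLFN13 (35435096 to 35448837), SLFN12L (35464249 to 35537678) and SLFN14 (35548125 to 35558098). Promoter sequences were at hand for 3 of the 6 members from RefSeq (GRCh38.p14), each with 250 bases before and 50 bases after the annotated start. They are shown because DAC acts on DNA methylation and the family answers to interferon, so that CG content and interferon-response letters in these windows are what a reader would look at first. Capitals mark matches, on either strand, to the interferon-stimulated response element core (GAAA, any 2 bases, GAAA), the STAT element TTCNNNGAA, the ETS core CCGGAA and the retinoic acid half-site AGGTCA, and each sequence runs 5′ to 3′ along the minus strand.
SLFN11, chr17:35373572-35373871: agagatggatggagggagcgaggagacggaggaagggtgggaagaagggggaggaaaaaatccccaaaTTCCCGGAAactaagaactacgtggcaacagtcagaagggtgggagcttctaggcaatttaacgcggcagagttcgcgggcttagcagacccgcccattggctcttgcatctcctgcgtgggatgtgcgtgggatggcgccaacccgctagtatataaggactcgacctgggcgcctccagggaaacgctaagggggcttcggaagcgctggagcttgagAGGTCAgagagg
SLFN12, chr17:35433125-35433424: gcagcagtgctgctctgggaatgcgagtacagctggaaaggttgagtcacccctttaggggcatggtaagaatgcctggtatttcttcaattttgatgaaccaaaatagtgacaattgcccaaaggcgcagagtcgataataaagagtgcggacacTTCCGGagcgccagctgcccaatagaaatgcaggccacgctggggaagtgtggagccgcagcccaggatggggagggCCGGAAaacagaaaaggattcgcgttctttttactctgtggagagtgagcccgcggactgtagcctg
SLFN12L, chr17:35537629-35537928: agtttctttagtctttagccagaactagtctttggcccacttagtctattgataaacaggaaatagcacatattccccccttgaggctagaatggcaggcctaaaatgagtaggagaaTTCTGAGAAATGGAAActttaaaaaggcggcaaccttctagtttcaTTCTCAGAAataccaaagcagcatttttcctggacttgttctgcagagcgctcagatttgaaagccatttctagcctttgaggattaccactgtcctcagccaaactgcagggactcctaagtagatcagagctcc

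The 3 windows differed in what they held. The SLFN11 window held 18 CG dinucleotides, against a median of 14 over the 27305 RefSeq promoters of this length, with 1 STAT element that contains the ETS core and 1 half-site after the start. The SLFN12 window held 13 CG dinucleotides and 2 ETS cores. The SLFN12L window held 2 CG dinucleotides, and 11.5% of all promoters held fewer. It was the only one of the 3 with an interferon-stimulated response element core, which overlaps one of its 2 STAT elements. Of all promoters, 3.65% held the response element core, 7.88% the STAT element, 17.6% the ETS core and 13.9% the half-site. These matches describe letters only, and no binding was measured here. The SLFN12L window belongs to the start of a transcript (ENST00000628453) to which no read was assigned. The main coding SLFN12 transcript with reads, ENST00000304905, starts at 35432500, outside the SLFN12 window. Coding transcripts that start in the SLFN11 window were listed at 0.

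Which Schlafen mRNAs the matrix can show was examined first, because SLFN11, the member of most interest for drug response, was listed at 0 in all 10 of its protein-coding transcripts. Of these 10 transcripts, 9 have no base outside the other listed transcripts of the same strand in GENCODE 44, and the other has 6 such bases. Listed transcripts not found in GENCODE 44 could not be subtracted, so all counts of own bases here are upper limits. Across the family, 15 matched coding transcripts have no base of their own, and 14 of them were listed at 0, the exception being SLFN12 ENST00000394562 with 3 reads. Of the 14 matched coding transcripts with bases of their own, 10 had reads, 9830 in all. Genes that every cell uses were also listed at very different values: SDHA was at 0 in every library, TUBB reached at most 0.832 normalised read counts and ACTB ran from 1.85 to 36.9, whereas PPIA ran from 2585 to 5163, HPRT1 from 204 to 563, EEF1A1 from 97.4 to 343, YWHAZ from 123 to 234 and GAPDH from 64.1 to 122. The bases of their own that these genes hold were not counted. A listing at 0 in this matrix therefore says nothing about the amount of SLFN11 mRNA, and its response to DAC or ATRA was not measurable here.

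**Figure D1:**
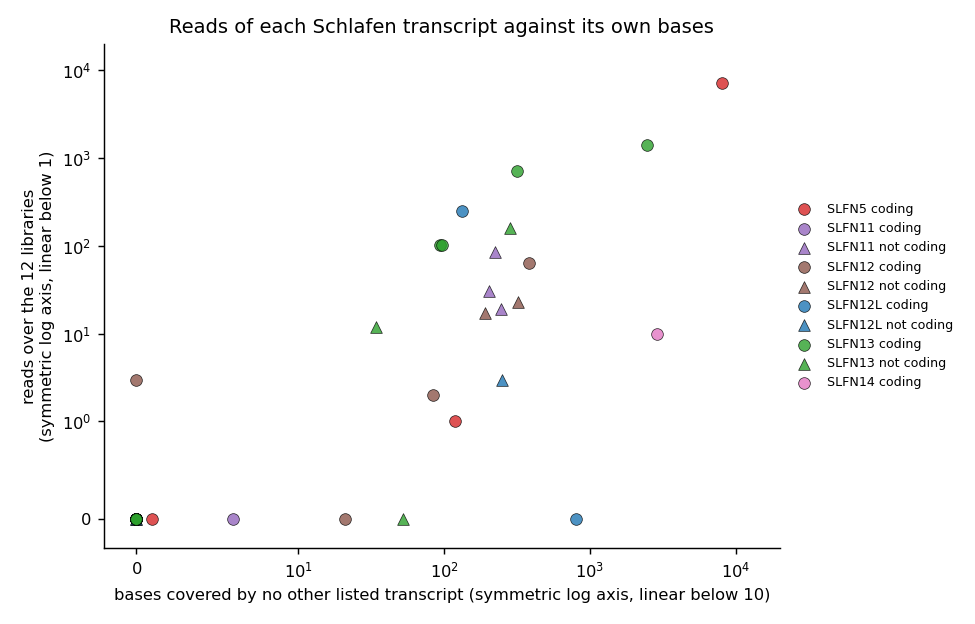
Reads summed over the 12 libraries (vertical, symmetric log axis) against the bases of each transcript that no other listed transcript found in GENCODE 44 covers (horizontal, symmetric log axis), for the 40 Schlafen transcripts found there. Circles are coding and triangles non-coding transcripts. SLFN5 with 8016 bases of its own stands at the top right, while the point at the origin stacks 16 transcripts, 14 of them coding, 9 of these from SLFN11.

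Reads of one Schlafen gene can also match another. Of the 50-base windows of the SLFN11 mRNA ENST00000308377, 12.7% also occur in another member, mostly SLFN13, and of SLFN13 ENST00000285013 7.39% also occur in another member. SLFN12 ENST00000304905 shared 1.99% of its windows with SLFN12L, and SLFN5 ENST00000299977 shared no window with another member and 0.2% with any other gene. SLFN12L ENST00000260908 shared 6.85% of its windows with other genes, 187 in number, and 0.392% with other members. At most 132 of its 12554 bases lie in no other listed transcript of its strand, because ENST00000361112 is not in GENCODE 44 and was not subtracted. SLFN13 values are thus uncertain where the counting could have split SLFN11 reads. Because countable bases differ so widely between transcripts, and because the deposited versions of SLFN5, SLFN12, SLFN12L and SLFN13 transcripts differ from GENCODE 44 for 5 of the 40 matched, Schlafen levels are compared below between groups only, never between genes.

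Of the 41 transcripts, 7 (1 of SLFN5, 2 of SLFN12L and 4 of SLFN13) were protein-coding and reached a normalised read count of 10 in at least 3 libraries, and they were tested among 9016 such transcripts. DAC changed 39.3% of all tested transcripts at an adjusted p under 0.01 and 2 of these 7, ATRA 9.14% and 1, and DAC + ATRA 46.8% and 2. Between treatments, 11.3% of all tested transcripts and 1 of the 7 differed between DAC + ATRA and DAC, and 34.8% and 3 of the 7 between DAC + ATRA and ATRA. The interaction, which measures how far the combination departs from the sum of both single-agent log2 changes, was called for 2.46% of all and for 0 of the 7. All 9 of these calls were upwards and fell on SLFN5 and SLFN12L. With limma, SLFN12L ENST00000361112 was the 1 member with an interaction at an unadjusted p under 0.05, no interaction was called with edgeR, and DESeq2 gave no adjusted p for either SLFN12L transcript. The median log2 fold change over all tested transcripts was itself 0.22 with DAC, 0.00 with ATRA and 0.20 with both, and for the called SLFN5 and SLFN12L changes from untreated cells the distance from this median is given beside the change. A transcript below 10 in all untreated libraries, such as those of RASL10B, IFI44L, SOCS1 and ISG20 below, could pass the filter only through treated libraries. In the same way, one below 10 in all libraries given DAC could pass only through the groups without it. Calls of such transcripts are conditional on the filter. Of the Schlafen transcripts, SLFN12L ENST00000361112 passed only with the help of its DAC + ATRA libraries.

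SLFN5, the nuclear interferon-induced member, rose with each treatment and most with both. Its full-length transcript ENST00000299977 (chr17:35243072-35273655, 5 exons, plus strand) had normalised read counts of 164, 170 and 189 in the untreated libraries and of 321, 278 and 375 with ATRA. With DAC the counts were 532, 781 and 595, and with DAC + ATRA 1129, 1323 and 1394. The 4 groups did not overlap, in the order untreated, ATRA, DAC, DAC + ATRA. The group means were 174 ± 13.4, 325 ± 49.0, 636 ± 130 and 1282 ± 137 in that order (SD, n = 3), from 570, 1060, 1891 and 3634 reads.

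Compared with untreated cells, SLFN5 rose 3.59-fold with DAC (log2 fold change 1.84, SE 0.14, adjusted p = 8.16e-10), which is 1.62 above the median of all tested transcripts. ATRA alone raised it 1.85-fold (0.88, SE 0.14, adjusted p = 1.13e-04), also 0.88 above the median, and the combination 7.30-fold (2.87, SE 0.14, adjusted p = 5.62e-13), 2.67 above it. SLFN5 was thus the only member called with ATRA alone. Adding ATRA to DAC raised it by a further 1.02 on the log2 scale (adjusted p = 1.91e-05) and adding DAC to ATRA by 1.98 (adjusted p = 3.02e-10). The interaction was 0.14 (95% interval -0.28 to 0.56, adjusted p = 0.788), so a departure from the sum of the single-agent changes was not detected, and one of up to 0.56 is not outside the interval. Across all alternatives the DAC + ATRA change lay between 2.72 and 2.96. Of all tested transcripts, 12.4% had a larger log2 fold change with DAC, 6.43% with ATRA and 9.57% with both. The remaining coding SLFN5 transcript with a read, ENST00000592325, had 1 read in an untreated library.

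**Figure D2:**
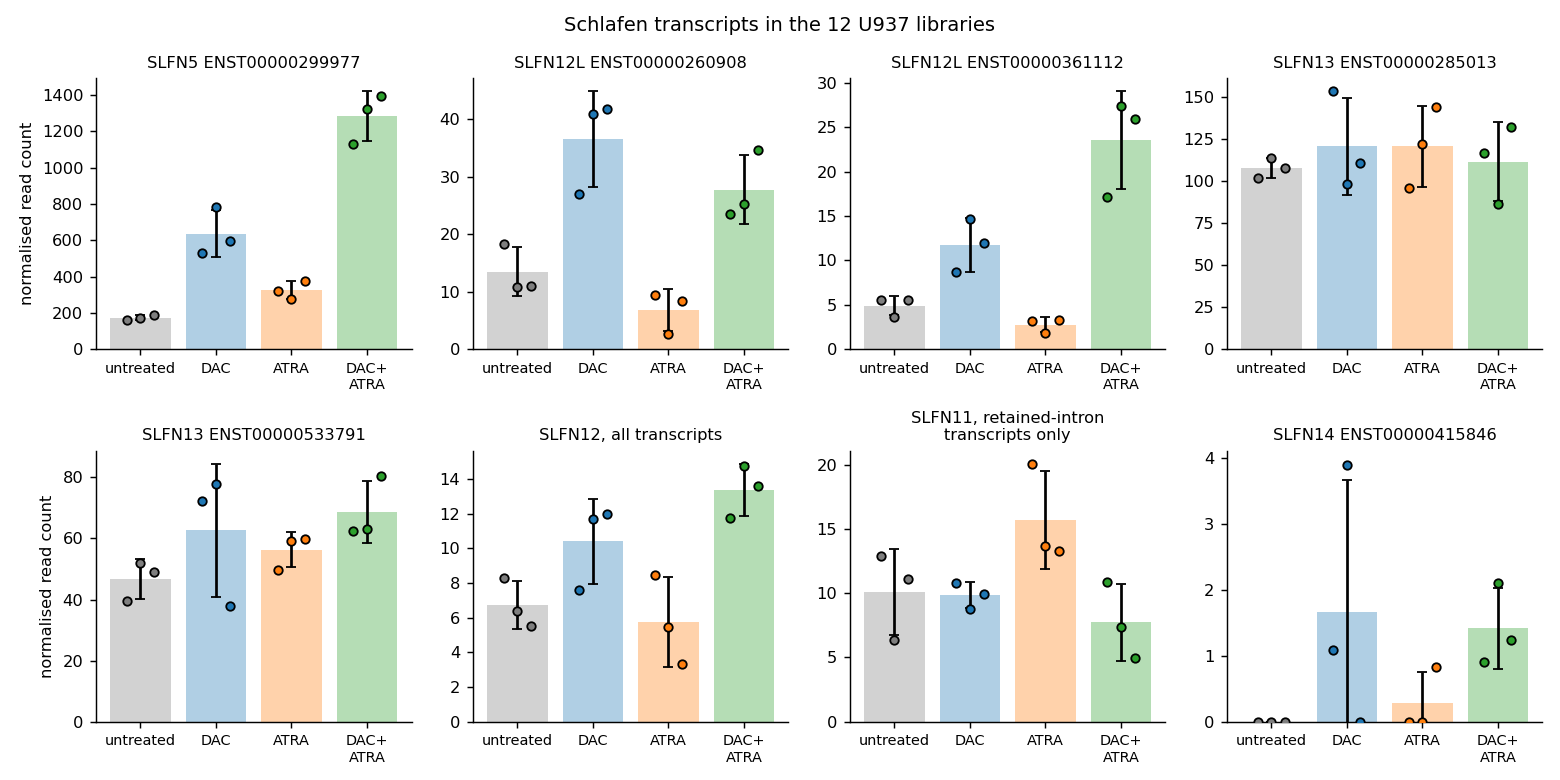
Normalised read counts (vertical, linear from 0, own scale in each panel) of Schlafen transcripts in untreated, DAC, ATRA and DAC + ATRA libraries; points are libraries, bars means and whiskers SD (n = 3). The 4 groups of SLFN5 are separate, from 164 to 189 in untreated cells up to 1129 to 1394 with DAC + ATRA, whereas those of SLFN13 ENST00000285013 overlap.

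SLFN12L, a member without the helicase-like part, had higher counts wherever DAC was given. Its transcript ENST00000260908 (chr17:35464254-35487857, 4 exons, minus strand) had normalised read counts of 18.4, 10.9 and 11.1 untreated, 27.0, 40.9 and 41.8 with DAC, 9.50, 2.73 and 8.32 with ATRA, and 23.5, 25.3 and 34.6 with DAC + ATRA. All DAC and DAC + ATRA libraries lay above all untreated ones, and all ATRA libraries lay below them. Each library rests on few reads, 44 in the untreated group and 22 with ATRA. DAC raised this transcript by 1.39 on the log2 scale (SE 0.36, adjusted p = 0.00273), 1.17 above the median of all tested transcripts. This call was lost, with an adjusted p of up to 0.0152, when untreated library 2 or 3 or DAC library 5 or 6 was left out. The DAC + ATRA difference from untreated was 1.01 (SE 0.36, adjusted p = 0.0199), and that from ATRA 1.99 (SE 0.36, adjusted p = 9.86e-05). ATRA alone gave -0.98 (95% interval -1.72 to -0.23, adjusted p = 0.0737), which did not pass the threshold, and it was -0.51 when ATRA library 8 was left out (adjusted p = 0.384) and -1.26 when ATRA library 7 was (adjusted p = 0.0338).

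The other SLFN12L transcript, ENST00000361112, is not part of GENCODE 44 and was taken as coding from its symbol, so no coordinates are given for it. Its normalised read counts were 5.51, 3.64 and 5.54 untreated, 8.65, 14.6 and 11.95 with DAC, 3.17, 1.82 and 3.33 with ATRA, and 17.2, 27.4 and 26.0 with DAC + ATRA. Only 2 libraries outside the DAC + ATRA group reached 10, so the transcript was tested because that group was high, and its calls are conditional on this. Here the combination stood above DAC alone in every library, whereas for ENST00000260908 these groups overlapped. The DAC + ATRA change from untreated was 2.04 (SE 0.35, adjusted p = 4.62e-05), 1.84 above the median of all tested transcripts, and from ATRA 2.70 (SE 0.35, adjusted p = 2.03e-06). With no filter on low values the change from untreated had an adjusted p of 2.79e-05. DAC alone gave 1.10 (SE 0.35, adjusted p = 0.0131) and ATRA alone -0.65 (95% interval -1.39 to 0.08, adjusted p = 0.253). The difference between DAC + ATRA and DAC, 0.94 (95% interval 0.21 to 1.68, adjusted p = 0.0719), and the interaction, 1.60 (95% interval 0.56 to 2.64, adjusted p = 0.0731), did not pass the threshold.

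The balance between the 2 SLFN12L transcripts was therefore examined within each library. ENST00000361112 took 23.1%, 25.0% and 33.3% of their joint reads in untreated cells, 24.2%, 26.3% and 22.2% with DAC, 25.0%, 40.0% and 28.6% with ATRA, and 42.2%, 52.0% and 42.9% with DAC + ATRA. The DAC + ATRA libraries were above all others. ENST00000361112 was kept only because its counts in these libraries were high, so its higher share there partly restates that choice. Over the pooled reads the share was 24.3% with DAC (35 of 144 reads, exact 95% interval 17.6 to 32.1) and 45.8% with DAC + ATRA (66 of 144, 37.5 to 54.3), intervals that cover counting error only. With 3 libraries in each group an exact two-sided permutation test cannot go below p = 0.1, so the separation cannot reach 0.05 by this test. Summed over both coding transcripts, SLFN12L rose by 1.35 with DAC (SE 0.32, adjusted p = 0.00131) and by 1.44 with DAC + ATRA (SE 0.32, adjusted p = 6.14e-04), and ATRA alone gave -0.94 (adjusted p = 0.0488). The retained-intron transcript ENST00000587436 had 3 reads in all.

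**Figure D3:**
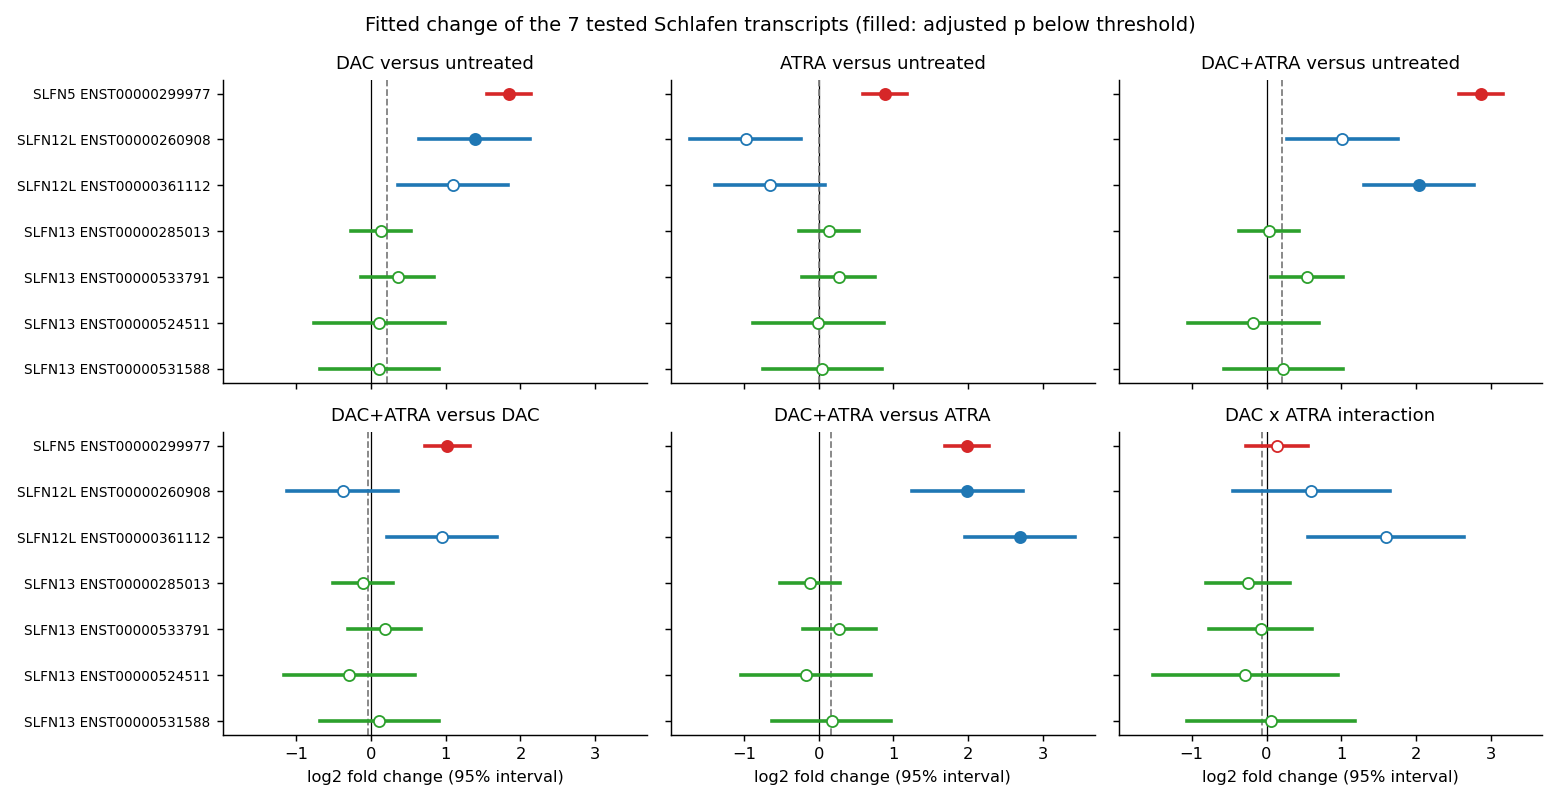
Log2 fold changes (horizontal) with 95% intervals of the 7 tested Schlafen transcripts in the 6 comparisons, on the log2(normalised read count + 1) scale; filled points have an adjusted p under 0.01 and the dashed line is the median of all 9016 tested transcripts. SLFN5 is filled in 5 panels, SLFN12L in some, and the 4 SLFN13 transcripts in none.

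SLFN13, the tRNA-cleaving member next to SLFN12L, did not pass the threshold in any comparison with any of its 4 tested transcripts. ENST00000285013 (chr17:35435096-35448766, 6 exons) had normalised read counts of 102, 114 and 108 untreated, 153, 98.4 and 111 with DAC, 96.1, 122 and 144 with ATRA, and 117, 86.3 and 132 with DAC + ATRA. All groups overlapped. The difference between DAC + ATRA and untreated cells was 0.03 on the log2 scale (95% interval -0.37 to 0.43, adjusted p = 0.908), that of DAC 0.14 (-0.26 to 0.54) and that of ATRA 0.14 (-0.26 to 0.54). These intervals leave out a change of the size seen for SLFN5 in each of the 3 comparisons.

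A second SLFN13 mRNA, ENST00000533791 (chr17:35439498-35446010, 4 exons), had 39.5, 51.9 and 48.9 untreated, 72.4, 77.9 and 37.8 with DAC, 49.6, 59.2 and 59.9 with ATRA, and 62.4, 63.2 and 80.3 with DAC + ATRA. The DAC + ATRA libraries were above the untreated ones, with a log2 difference of 0.54 (95% interval 0.06 to 1.03, adjusted p = 0.0516). Its share of the reads of the 4 tested transcripts was 27.4% untreated (exact 95% interval 23.8 to 31.3), 31.2% with DAC (27.5 to 35.2), 28.9% with ATRA (25.4 to 32.6) and 34.7% with DAC + ATRA (30.8 to 38.8). By library it was 25.6%, 28.6% and 27.7% untreated, 29.6% and 41.5% in DAC libraries 4 and 5 and lower than in any other library in DAC library 6, 30.7%, 30.1% and 27.0% with ATRA, and 31.4%, 38.7% and 35.3% with DAC + ATRA, so that the DAC libraries held both the lowest and the highest share. The short transcripts ENST00000524511 and ENST00000531588 held 103 reads each, and their log2 differences from untreated cells ran from -0.18 to 0.22 over the 3 treatments. The retained-intron transcript ENST00000526483, with 158 reads, showed overlapping groups throughout, and ENST00000532774 had 12 reads.

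SLFN12, the PDE3A-dependent RNase, was seen by few reads, and no single transcript reached the expression filter. Summed over its 5 transcripts with reads, the normalised read counts were 8.27, 6.37 and 5.54 untreated, 7.57, 11.7 and 11.95 with DAC, 8.45, 5.46 and 3.33 with ATRA, and 11.8, 14.7 and 13.6 with DAC + ATRA. The DAC + ATRA libraries were above all untreated and all ATRA libraries. In a fit on sums over each symbol and all biotypes, chosen after the data were seen, 40.6%, 9.61% and 48.5% of 13528 symbols were called with DAC, ATRA and DAC + ATRA, and 12.3% and 37.1% for DAC + ATRA against DAC and against ATRA. In that fit SLFN12 was called against ATRA only (log2 fold change 1.16, SE 0.35, adjusted p = 0.00953). SLFN12 reached 10 in no untreated or ATRA library, so it entered this fit only through libraries given DAC, and that call is conditional on this. Its difference from untreated cells was 0.90 with DAC + ATRA (95% interval 0.17 to 1.64, adjusted p = 0.0319) and 0.55 with DAC (adjusted p = 0.197). The main coding transcript ENST00000304905 had 15, 12, 14 and 23 reads in the untreated, DAC, ATRA and DAC + ATRA groups. The remaining reads lay on ENST00000479326 (23), ENST00000428476 (17), ENST00000394562 (3) and ENST00000452764 (2).

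For SLFN11, reads fell only on 3 retained-intron transcripts, which are not coding and are no measure of its mRNA. Their summed normalised read counts were 12.9, 6.37 and 11.1 untreated, 10.8, 8.77 and 9.96 with DAC, 20.1, 13.7 and 13.3 with ATRA, and 10.8, 7.37 and 4.94 with DAC + ATRA. The ATRA libraries were the highest, and those with DAC + ATRA lay below them. In the same summed fit no SLFN11 comparison was called, DAC giving 0.01 (95% interval -0.71 to 0.73), ATRA 0.61 (-0.11 to 1.34) and DAC + ATRA -0.36 (-1.08 to 0.37). Of the 3 transcripts, ENST00000498396 (chr17:35367266-35373620) had 9 reads untreated, 8 with ATRA and 1 each with DAC and DAC + ATRA. ENST00000586099 had 85 and ENST00000589562 31 reads in all.

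SLFN14, the ribosome-bound nuclease, has a single listed transcript (ENST00000415846) whose 2889 bases all lie outside the other listed transcripts of its strand. It had 0 reads in the untreated libraries, 5 with DAC, 1 with ATRA and 4 with both. In the untreated libraries 0 reads allows up to 3 reads, which equal 2.73 to 2.77 normalised read counts depending on the library. Each DAC + ATRA library held at least 1 read, but a difference between groups was not detectable at this depth.

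Transcripts around the members were set beside them, using a fit on transcripts of any biotype in which 33.5%, 6.97% and 41.6% of 19373 transcripts were called with DAC, ATRA and DAC + ATRA, and 8.77% and 29.4% for DAC + ATRA against DAC and against ATRA. From LIG3 to RASL10B, 18 transcripts with coordinates passed the filter, 7 of them Schlafen (1 of SLFN5, 5 of SLFN13 with the retained-intron ENST00000526483, and 1 of SLFN12L, whose ENST00000361112 has no coordinates). Of the 11 others, 4 rose and 2 fell with DAC, 2 rose with ATRA, and 6 rose and 4 fell with DAC + ATRA. The non-coding neighbours inside the cluster and at its SLFN5 end are named here after their values were seen. The lncRNA RP11-686D22.8 (chr17:35406684-35409768, minus strand) starts 1153 bases past the end of SLFN12 on the same strand. It had 114, 94.7 and 79.4 untreated, 230, 330 and 283 with DAC, 170, 162 and 128 with ATRA, and 325, 368 and 344 with DAC + ATRA. Its untreated libraries lay below all others, and it rose by 1.54 with DAC (SE 0.16, adjusted p = 9.85e-09), 0.67 with ATRA (SE 0.16, adjusted p = 0.00416) and 1.85 with both (SE 0.16, adjusted p = 2.50e-10). RP11-686D22.4, 2310 bases further on, rose by 1.52 with DAC (adjusted p = 3.34e-06) and 2.05 with both (adjusted p = 2.00e-08), while ATRA gave 0.54 (adjusted p = 0.130).

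Between SLFN5 and SLFN11, the lncRNA RP11-47L3.1 (chr17:35313524-35324909, plus strand) had 0 reads in all untreated and ATRA libraries and 15.1, 18.5 and 17.9 normalised read counts with DAC and 19.0, 11.6 and 11.1 with DAC + ATRA. It passed the filter only through libraries given DAC and is compared with groups at 0, so no p is given for it, although it is counted among the 4 and the 6 that rose. RP11-799D4.4, which starts 109 bases from SLFN5 on the opposite strand, had 31.2, 31.0 and 37.9 untreated, 55.1, 34.1 and 49.8 with DAC, 60.2, 62.8 and 59.1 with ATRA, and 53.3, 74.7 and 59.3 with DAC + ATRA. It rose with ATRA by 0.85 (adjusted p = 0.00592) and with both by 0.88 (adjusted p = 8.73e-04), but not beyond the threshold with DAC (0.44, adjusted p = 0.0834). SLFN5, 109 bases away, had its larger single-agent difference with DAC. The libraries were strand-specific, but the strand setting of the counting is not given in the sources used here.

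**Figure D4:**
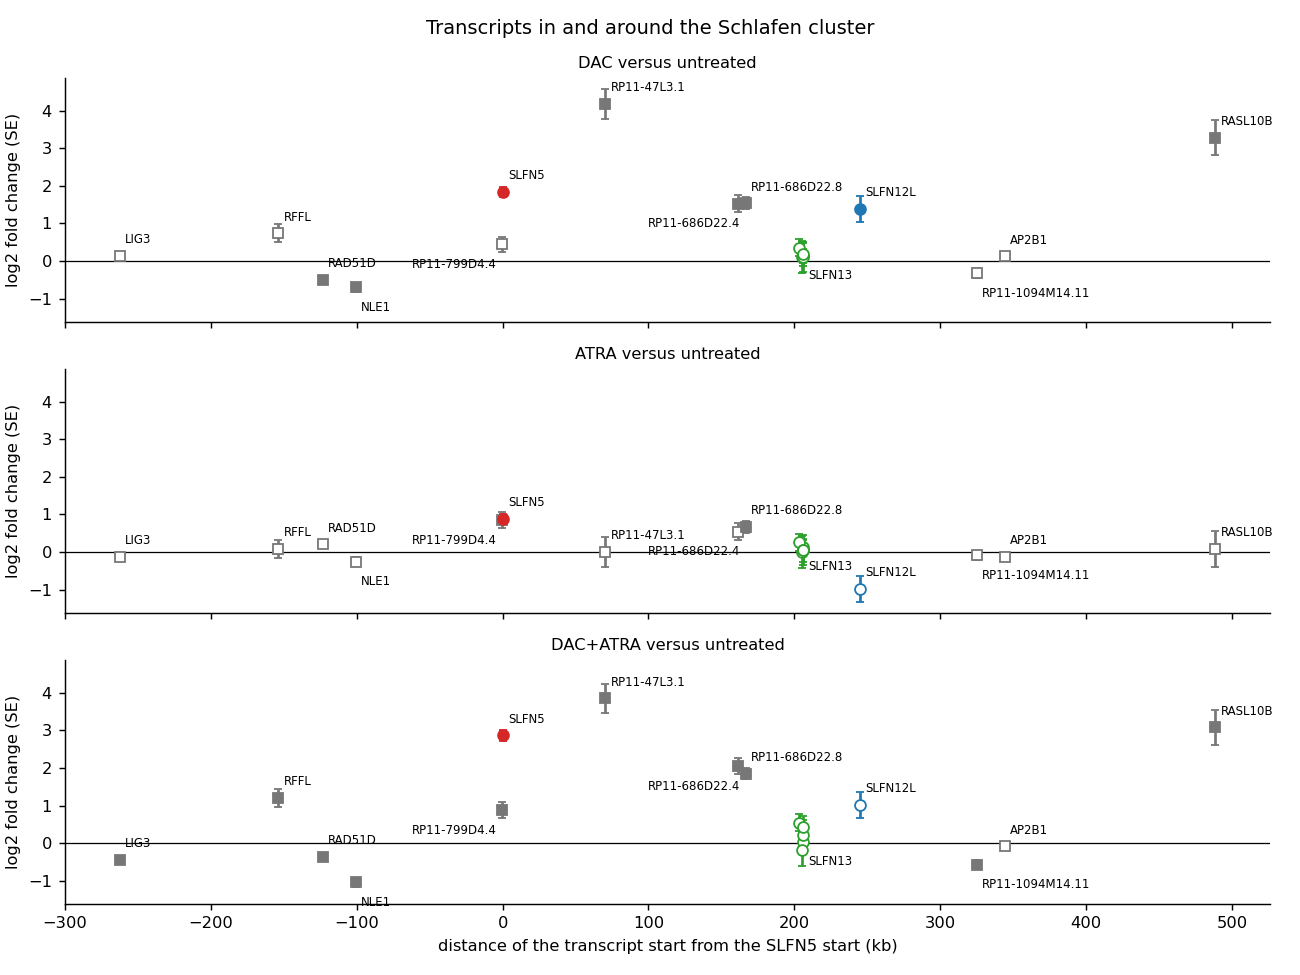
Log2 fold change with SE (vertical) of the 18 transcripts that passed the filter against the distance of their start from the SLFN5 start in kb (horizontal), for each treatment against untreated cells; coloured circles are Schlafen transcripts, grey squares others, and filled symbols have an adjusted p under 0.01. SLFN5 and the lncRNAs RP11-686D22.4 and RP11-686D22.8 are raised in the DAC and DAC + ATRA panels, the SLFN13 transcripts, further along between these lncRNAs and SLFN12L, are unfilled and run from -0.18 to 0.54 over the panels, and RP11-47L3.1 was at 0 reads without DAC, so its height depends on the pseudocount.

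Among the protein-coding neighbours outside the cluster, 8 of 16 listed were tested. With DAC 1 rose and 2 fell, with ATRA 0 were called, and with DAC + ATRA 2 rose and 3 fell, beside 39.3%, 9.14% and 46.8% of all tested transcripts called in either direction. RASL10B, a small GTPase-like gene, had the highest value with DAC (0.919, 0.910 and 1.85 normalised read counts untreated, 16.2, 22.41 and 22.9 with DAC, adjusted p = 4.62e-06). RASL10B reached 10 only in libraries given DAC, so its calls are conditional on the filter. NLE1, a factor of ribosome assembly, had the lowest value with every treatment and fell by 0.70 with DAC (adjusted p = 4.10e-05) and by 1.04 with DAC + ATRA (adjusted p = 1.76e-07). CCT6B, a chaperonin subunit, had the highest with ATRA, 0.84 (adjusted p = 0.224).

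Because Schlafen genes answer to interferon, the interferon genes were described alongside. Of 18 tested interferon-stimulated genes, 16 rose with DAC, 8 with ATRA and 15 with both, beside 30.6%, 6.47% and 32.6% of all tested transcripts called higher, and 1 fell with DAC + ATRA. Their median log2 fold changes were 1.50, 0.56 and 2.45, beside 0.22, 0.00 and 0.20 over all tested transcripts. SLFN5 lay within this range, with 5 of the 18 having a larger log2 fold change with DAC, 6 with ATRA and 7 with both. The list held 30 genes, and those that did not pass the filter were not tested. Among the tested genes, ISG15, IFIT1, IFIT3, IFI44L and OASL had untreated means below 10. They passed the filter only with the help of treated libraries, which favours rises in the counts and medians above. IFI44L, an antiviral response gene, had the highest value with DAC (means of 1.23 untreated and 45.7 with DAC, adjusted p = 1.78e-08) and with DAC + ATRA (138, adjusted p = 1.46e-10). IFIT5, which binds viral RNA ends, was highest with ATRA, by 1.81 (adjusted p = 1.61e-09), and IFIT1 lowest (-0.28, adjusted p = 0.751). MX2, a GTPase against retroviruses, was lowest with DAC (-0.39, adjusted p = 0.0176) and fell by 0.43 with DAC + ATRA (adjusted p = 0.00732).

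**Figure D5:**
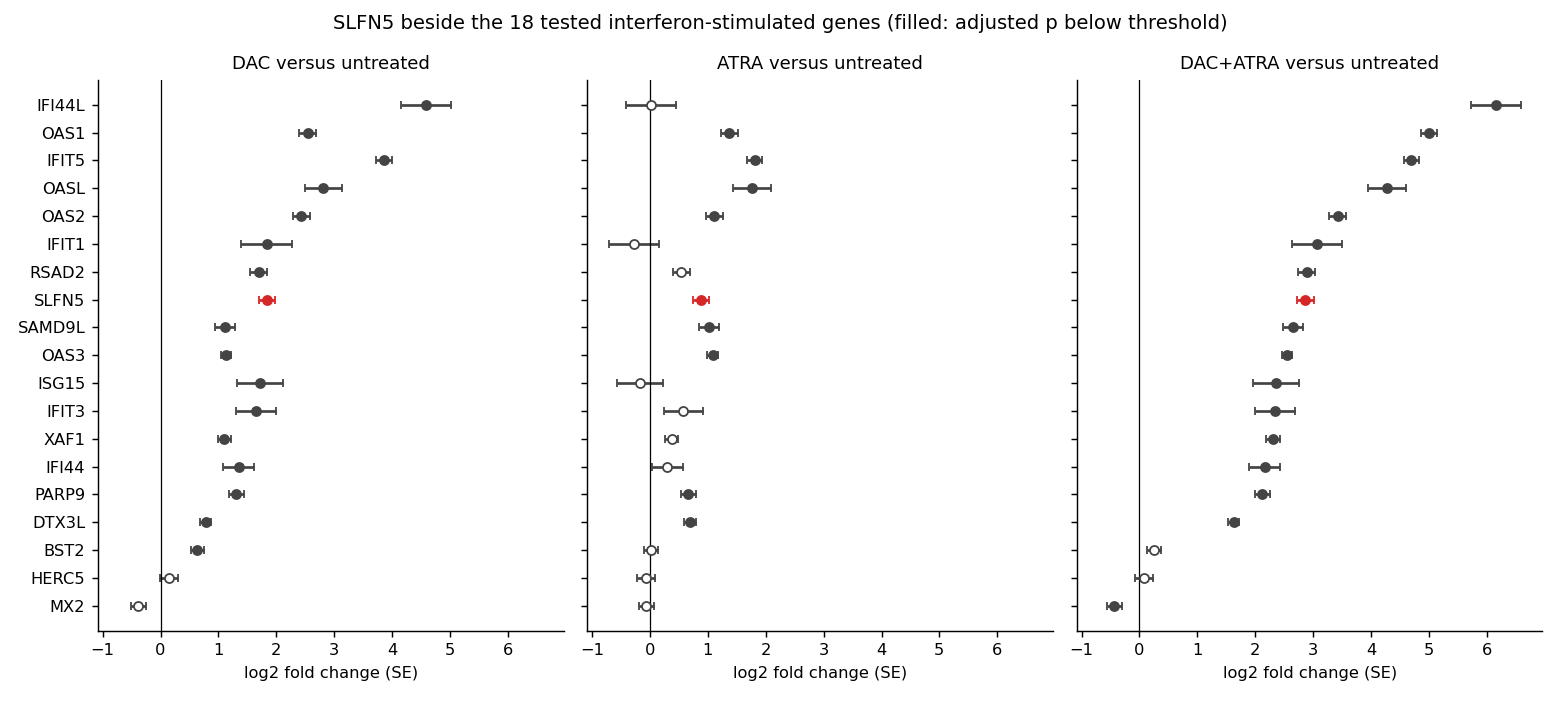
Log2 fold change with SE (horizontal) of SLFN5 (red) and the 18 tested interferon-stimulated genes (dark), ordered by their DAC + ATRA value, for each treatment against untreated cells; filled points have an adjusted p under 0.01. SLFN5 stands inside the spread of these genes in each panel, at 1.84 with DAC, 0.88 with ATRA and 2.87 with both.

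Of 12 tested genes of interferon signalling, 6 rose with DAC, 4 with ATRA and 9 with both, beside the same 30.6%, 6.47% and 32.6% over all tested transcripts, with medians of 0.46, 0.44 and 0.94. SOCS1, an inhibitor of the JAK kinases, was highest with DAC (mean 3.38 untreated, 154 with DAC, adjusted p = 1.98e-06) and with DAC + ATRA (189, adjusted p = 8.68e-07). IRF1, a transcription factor downstream of interferon gamma, rose most with ATRA, by 2.62 (adjusted p = 1.20e-11). The lowest values were 0.03 for IRF8 with DAC (adjusted p = 0.901), 0.12 for JAK1 with ATRA (adjusted p = 0.463) and 0.16 for IFNGR2 with DAC + ATRA (adjusted p = 0.716).

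The genes that work with Schlafen proteins were described by list. Of 15 tested genes of replication stress, the setting of SLFN11, 4 fell with DAC, 0 were called with ATRA and 7 fell with DAC + ATRA, and none of them rose. Of all tested transcripts 8.7%, 2.67% and 14.2% were called lower in these comparisons. The medians were -0.27, -0.05 and -0.40. CHEK1, the checkpoint kinase, was lowest with DAC (-1.56, adjusted p = 0.00288) and with DAC + ATRA (-1.55, adjusted p = 0.00265), and CUL4A, a ubiquitin ligase scaffold, with ATRA (-0.55, adjusted p = 0.101). WEE1, a kinase that holds back mitosis, had the highest value each time, from 0.08 to 0.50, and was not called.

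Of 7 tested genes of RNA cleavage and ribosome stress, 6 rose with DAC, 0 were called with ATRA, and 6 rose and 1 fell with DAC + ATRA, beside 30.6%, 6.47% and 32.6% of all tested transcripts called higher, with medians of 0.53, 0.14 and 0.76. ISG20, an interferon-induced exonuclease, was highest each time, with means of 2.76 untreated, 12.7 with DAC, 6.42 with ATRA and 20.3 with both (adjusted p = 0.00103, 0.159 and 2.40e-05). GCN1, a sensor of stalled ribosomes, fell by 0.40 with DAC + ATRA (adjusted p = 8.88e-04) and was lowest with DAC, and ZC3HAV1, an antiviral RNA-binding protein, was lowest with ATRA (-0.08, adjusted p = 0.718).

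Of 14 chromatin and transcription regulators linked to Schlafen genes 3 were tested. DNMT3A, a DNA methyltransferase, rose by 0.32 with DAC (adjusted p = 0.00655), by 1.38 with ATRA (adjusted p = 3.44e-10) and by 1.43 with both (adjusted p = 3.04e-11). Beside these changes, the medians over all tested transcripts were 0.22, 0.00 and 0.20, so the DAC change lay close to the median. HDAC2, a histone deacetylase, fell by 0.71 with DAC (adjusted p = 0.00310) and by 0.73 with both (adjusted p = 0.00215). SUZ12, of the Polycomb complex, was not called (-0.17 with ATRA, adjusted p = 0.780).

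The transcripts whose pattern over the 12 libraries was most like each tested gene were read off as a description. All points share the same libraries and 4 treatment groups, so these correlations restate the group pattern. For SLFN5 the closest were FRK (a Src-like tyrosine kinase, Pearson r = 0.992), CYLD (a deubiquitinase, 0.991) and PARP9 (an interferon-induced ADP-ribosyltransferase, 0.990). PARP9, for example, had means of 178 untreated, 442 with DAC, 285 with ATRA and 775 with both. For SLFN12L they were HIP1R (an endocytic adaptor, 0.947), HDAC9 (a histone deacetylase, 0.945) and PPP4R3B (a phosphatase subunit, 0.943). HDAC9 shared the low ATRA level, with means of 41.3, 76.0, 24.3 and 68.7 in the order untreated, DAC, ATRA, DAC + ATRA. For SLFN13 the highest r was only 0.737, for PHF8 (a histone demethylase), then 0.724 for AP000295.10 and 0.722 for BSCL2 (seipin), all low for the best of 9012 transcripts. Between members, r was 0.852 for the 2 SLFN12L transcripts, 0.86 for SLFN5 and ENST00000361112, and -0.01 for SLFN5 and SLFN13 ENST00000285013.

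Library and cell identity values were as follows. The 12 libraries held 8042435 to 10683593 counted reads. Of the myelomonocytic markers, MPO, ITGAM, CD4, LYZ and SPI1 were found in all libraries, and of the 8 tested 3 rose and 1 fell with DAC, 2 rose and 1 fell with ATRA, and 3 rose and 1 fell with DAC + ATRA, beside 39.3%, 9.14% and 46.8% of all tested transcripts called in either direction. ITGAM, the integrin subunit CD11b, went from 189 to 217 normalised read counts untreated to 843 to 876 with DAC, 919 to 1060 with ATRA and 2608 to 2805 with both (log2 fold change 3.75 with both, adjusted p = 2.08e-17). MPO, the granule myeloperoxidase, fell by 1.80 on the log2 scale with both (adjusted p = 6.73e-09). LYZ, lysozyme, had 155 to 181 untreated, 641 to 941 with DAC, 142 to 214 with ATRA and 954 to 1178 with both. As for SLFN5, the untreated libraries were lowest and the DAC + ATRA libraries highest for ITGAM, with DAC below ATRA. Other markers of this list were at or near 0, in a matrix that also lists SDHA at 0. PTPRC was listed at 0, and CD33 reached at most 1.67, CD14 2.47, CD68 2.71, CSF1R 3.71 and ELANE 4.6 normalised read counts. Markers of other lineages also differed between the groups. The sum of the normalised read counts of the 7 T cell markers, not corrected for length, was 2.76 to 10.2 untreated, 298 to 392 with DAC, 4.55 to 9.50 with ATRA and 135 to 181 with DAC + ATRA. CD2, the member that was tested, rose with DAC and with both, with CD3E, CD247 and TRAC listed at 0. The sum of the 8 erythroid and platelet markers was 19.3 to 33.2 untreated, 378 to 516 with DAC, 25.8 to 38.2 with ATRA and 255 to 279 with DAC + ATRA, with HBA1, HBB and ALAS2 listed at 0. The 5 B cell markers summed to 482 to 544 untreated, 865 to 929 with DAC, 500.2 to 714 with ATRA and 1640 to 1773 with DAC + ATRA, and CD79B was listed at 0. CD79A was the member called, with a log2 fold change of 1.96 with DAC, 1.22 with ATRA and 3.34 with both. The 6 epithelial and fibroblast markers summed to 15.5 to 21.2 untreated, 234 to 294 with DAC, 48.3 to 54.6 with ATRA and 144 to 176 with DAC + ATRA, with KRT18 and CDH1 listed at 0. COL1A1 of that list was called with each treatment, by 3.56 with DAC, 1.33 with ATRA and 2.83 with both. The part of all these markers in the Schlafen values was not tested. In bulk RNA, fewer cells with a transcript and less transcript per cell cannot be told apart.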

How the data were processed

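Total RNA of 12 U937 libraries (3 each untreated, DAC, ATRA, DAC + ATRA) was sequenced on strand-specific libraries. Per the submitters' processing notes and methods, the authors used STAR for alignment (hg38), HTSeq for counting and DESeq2, with versions and counting mode not given in the sources used here. The deposited signal values are reads per transcript divided by 1 size factor per library, and whole reads were recovered from their steps (100% of values whole within 0.1 read). Columns were assigned to groups by name. Biotype and coordinates came from GENCODE 44 (174768 of 197782 transcripts matched by identifier). Protein-coding transcripts that reached 10 normalised reads in 3 or more libraries entered limma 3.58.1 (R 4.3.3, trend and robust) on log2(normalised read count + 1), all 12 libraries in 1 fit, with Benjamini-Hochberg adjustment over 9016 transcripts per comparison and an adjusted p under 0.01 as threshold. Every adjusted p and every fold change is from this fit, on this log2 scale, unless another is named, and low counts give understated folds. The libraries held 8042435 to 10683593 reads, so that 3 reads equal 2.50 to 3.71 normalised reads, and intervals on shares cover counting error only. Alternatives were edgeR 4.0.16 and DESeq2 1.42.0 on recovered reads, other scalings, filters, pseudocounts, units and left-out libraries. The tests were checked on simulated data. A gene's value is its coding transcript with the highest mean. Named genes are the 6 members, the highest and lowest tested gene of each list per treatment, and the 3 most correlated transcripts of each tested member. The lncRNAs of the locus were named after their values were seen, and cell markers and commonly used genes are named for checks of the matrix only. The members and lists were chosen with earlier results of these data known. A few listed genes are not reported here.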

Additional observations from a re-analysis of the deposited data

Results flagged for a closer look

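The 2 ATRA comparisons of SLFN12L ENST00000361112 went in opposite directions. All ATRA libraries (1.82 to 3.33 normalised read counts) lay below all untreated ones (3.64 to 5.54), and all DAC + ATRA libraries (17.2 to 27.4) lay above all DAC ones (8.65 to 14.6). The difference between these 2 effects, tested as the interaction term in limma, was 1.60 on the log2 scale (SE 0.50, unadjusted p = 0.00448, adjusted p = 0.0731), with 9 reads behind the ATRA group, and it did not pass the threshold. This transcript passed the expression filter only with the help of its DAC + ATRA libraries, which favours an upward interaction, and with no filter on low values the adjusted p was 0.221. With edgeR on recovered reads it was 1.85 (adjusted p = 0.102).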

How the results depend on the processing

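Recomputed under other settings, the count of called Schlafen transcripts was unchanged at 1 with ATRA, 1 for DAC + ATRA against DAC and 0 for the interaction wherever it could be run at the threshold of 0.01, and in the reported fit at 0.05. With DAC it was 2, and 3 at a threshold of 0.05. When each library was left out in turn, it ran from 1 to 3 with DAC, from 2 to 3 with DAC + ATRA, and stayed at 3 for DAC + ATRA against ATRA. SLFN5 kept its 5 calls under every alternative, with the ATRA change between 0.78 and 0.99. The DAC call of SLFN12L ENST00000260908 was lost without untreated library 2 (1.27, adjusted p = 0.0148) or 3 (1.28, 0.0136) and without DAC library 5 (1.30, 0.0140) or 6 (1.28, 0.0152), and was kept with edgeR (adjusted p = 0.00193) and DESeq2 (0.00335). Its DAC + ATRA difference passed the threshold when both coding transcripts were summed (1.44, adjusted p = 6.14e-04), when only the compared groups entered the fit (adjusted p = 0.00449) and without ATRA library 8 (0.00449). SLFN13 stayed uncalled in every alternative; the lowest adjusted p was 0.0102. No paired analysis was possible because the columns are numbered 1 to 12 and the titles 1 to 3 within a group, so that no shared number ties libraries of different groups. Chosen after the data were seen were sums over each symbol and all biotypes, and edgeR without DAC library 6. Depth limits SLFN14. For SLFN12 and SLFN11, few reads and few bases of their own in the coding transcripts cannot be told apart as limits.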
